A study of Mus musculus with 32 samples.

Results

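The mitosis genes described here are 46 genes whose products drive entry into mitosis, the spindle, the separation of chromosomes and cytokinesis. They were chosen by name, as every probe whose gene name on the array is one of the 46. All 46 had at least 1 probe, with 65 probes among the 55681 mouse probes of the array. Each gene was read from its brightest usable probe, a probe being usable where 1 or more of the groups had it well above background in all 4 mice. Such a probe was held by 45 of the 46 genes, the exception being Aurkb.

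Whole-lung RNA of 32 newborn C57Bl/6J mice was hybridised to one-colour gene expression arrays, 4 mice in each of 8 groups. Pups were kept in room air (21% O2, normoxia) or in 85% O2 (hyperoxia), which blocks the formation of alveoli and serves as a mouse model of bronchopulmonary dysplasia, and lungs were taken at post-natal day P5 or P14. Every pup was injected with a locked nucleic acid oligonucleotide, either a scrambled sequence or antimiR-34a, which binds and blocks the microRNA miR-34a, so no group was free of an oligonucleotide. Lungs were flushed of blood before harvest, and both sexes were used. The antimiR reached the whole animal and was not directed at 1 cell type, and each value is the average of all cells in a lung. The labels name pentobarbital at P5 and isoflurane at P14 for the killing of the mice, whereas the methods of the study name pentobarbital at both ages, and the sources used here do not settle which holds. Each of the 4 slides held 1 age at 1 oxygen level, so oxygen and age cannot be told apart from slide, and the antimiR groups lay on another row of each slide than the scrambled groups. Of 21 lung marker genes, 21 were above background on all 32 arrays.

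Mitosis genes are switched on together late in the cell cycle, in G2, and their transcripts are scarce in cells that do not divide. Their promoters are known for a site called the cell cycle homology region (CHR), often with CCAAT boxes bound by NF-Y. In resting cells the DREAM complex holds such promoters down, and the p53 target p21 acts through it, while the MYBL2-MuvB complex and FOXM1 switch them on in dividing cells. Outgrowth of new septa in the newborn lung goes with a wave of cell division that later fades.

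Promoter sequences are shown for letters that most of the members with a promoter in the reference hold, though not all. RefSeq promoters of GRCm38.p6 were held for 37 of the 46 genes. The letters of the CHR (TTTGAA or TTTAAA, either strand) lay in the 300 bases around the start of 29 of these 37 (78.4%), against 30.6% of the promoters of all 27025 genes. Within 50 bases of the start they lay in 26 members (70.3%), against 9.54% of all genes. A CCAAT in either strand lay in 28 members (75.7%, against 41.1%), at least 2 of them lay in 21 (56.8%, against 13.3%), and both kinds of letters lay in 25 (67.6%, against 12.2%). In 1 place a match of one overlapped a match of the other. A match is a description of letters and shows no binding.

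The promoters of the B-type cyclins, of their kinase Cdk1, of Plk1, of the anaphase activator Cdc20 and of Top2a are printed from 150 bases before the start to 30 bases after it, 5′ to 3′ on the strand of the gene, with CHR letters and CCAAT in capitals (ATTGG is CCAAT and TTCAAA is TTTGAA on the other strand). That of Pttg1 is printed as a contrast. It is 1 of the 5 members with neither motif in these 300 bases, with Melk, Mybl2, Nuf2 and Nusap1, which says only that these letters are not in this window.
Ccnb1 (chr13:100786457-100786636, - strand): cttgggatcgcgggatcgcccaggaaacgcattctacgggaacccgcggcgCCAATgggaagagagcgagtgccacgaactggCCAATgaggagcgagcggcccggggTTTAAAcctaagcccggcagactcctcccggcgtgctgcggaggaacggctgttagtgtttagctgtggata
Ccnb2 (chr9:70421525-70421704, - strand): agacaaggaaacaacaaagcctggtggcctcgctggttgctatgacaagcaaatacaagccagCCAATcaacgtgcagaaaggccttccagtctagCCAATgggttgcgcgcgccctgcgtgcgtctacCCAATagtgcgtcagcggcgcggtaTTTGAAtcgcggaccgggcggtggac
Cdk1 (chr10:69352883-69353062, - strand): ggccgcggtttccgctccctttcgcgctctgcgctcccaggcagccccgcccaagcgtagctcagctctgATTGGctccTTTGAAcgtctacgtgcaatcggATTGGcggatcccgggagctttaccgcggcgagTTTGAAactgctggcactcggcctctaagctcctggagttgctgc
Plk1 (chr7:122159285-122159464, + strand): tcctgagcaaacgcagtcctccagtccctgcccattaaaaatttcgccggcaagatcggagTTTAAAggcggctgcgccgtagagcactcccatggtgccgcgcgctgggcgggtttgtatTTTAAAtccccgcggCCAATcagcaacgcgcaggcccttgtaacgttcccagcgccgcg
Cdc20 (chr4:118437314-118437493, - strand): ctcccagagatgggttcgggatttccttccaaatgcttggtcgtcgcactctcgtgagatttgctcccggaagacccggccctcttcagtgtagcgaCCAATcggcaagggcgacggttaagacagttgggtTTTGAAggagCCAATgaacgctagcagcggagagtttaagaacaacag
Top2a (chr11:99024160-99024339, - strand): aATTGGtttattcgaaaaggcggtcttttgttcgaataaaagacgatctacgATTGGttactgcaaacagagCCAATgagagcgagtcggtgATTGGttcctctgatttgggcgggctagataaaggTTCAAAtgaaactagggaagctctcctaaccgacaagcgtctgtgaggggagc
Pttg1 (chr11:43425952-43426131, - strand): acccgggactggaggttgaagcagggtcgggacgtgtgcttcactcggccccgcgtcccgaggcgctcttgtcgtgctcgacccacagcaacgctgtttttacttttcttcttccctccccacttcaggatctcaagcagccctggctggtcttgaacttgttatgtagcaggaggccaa

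The target of the antimiR is printed to show what was blocked, with its seed (bases 2 to 8) in capitals. It lies at chr4:150068473-150068494 on the + strand of GRCm38.p6.
mmu-miR-34a-5p: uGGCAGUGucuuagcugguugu

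The mitosis genes were lower in hyperoxic than in normoxic lungs at P5. In mice given the scrambled oligonucleotide, 44 of 45 members fell with 85% O2 and none rose, with a median log2 difference of -0.97, a 1.96-fold lower level, against a median of -0.07 over all 35984 probes tested. Of all tested probes, 26.5% were called lower in this comparison. In antimiR-34a mice at the same age 43 of 45 fell and none rose, where 29.5% of all tested probes were called lower, and the members' median was -0.88. The members left uncalled were Pttg1 in scrambled mice and Pttg1 and Ttk in antimiR-34a mice. In 44 of 45 members every scrambled hyperoxic mouse lay below every scrambled normoxic mouse, which held for 23.5% of all tested probes. A level throughout is the log2 of the processed spot intensity minus the 75th percentile of its array, so it compares mice for 1 probe and not 1 gene with another. Called means a Benjamini-Hochberg adjusted p under 0.05 over all tested probes in limma, on 4 mice against 4, and these p-values measure the spread between the mice sampled. With each array's median in place of its 75th percentile, 39 members fell in scrambled and 40 in antimiR-34a mice at P5 and none rose, although the median over all tested probes in scrambled mice moved from -0.07 to 0.17 and the share of higher ones among all probes called moved from 39.7% to 74.4% in scrambled and from 36.8% to 68.3% in antimiR-34a mice. In whole lung, fewer dividing cells and less RNA per cell cannot be told apart.

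At P14 the members' median oxygen difference was smaller in value. In scrambled mice 12 of 45 members fell and none rose, with a median of -0.27 (1.21-fold) against -0.07 over all probes, and 32.7% of all tested probes were called lower. A fit of only the 8 compared mice called 21 of the 45 members lower and 1 higher, with 31.9% of all probes lower and 27.6% higher. In antimiR-34a mice 16 of 45 fell and none rose, where 37.9% of all tested probes were called lower. There a fit of only the 8 compared mice called 8 lower (36.7% of all probes) and the methods' test with Benjamini-Hochberg adjustment 5 (31.8%). The 12 called in scrambled mice were Cdk1, Cdc25b, Bub1, Bub1b, Ttk, Cenpa, Ndc80, Nusap1, Aspm, Hmmr, Kif23 and Anln, and the 16 were these 12 with Mki67, Cdc25c, Kif4 and Mybl2. The scrambled groups did not overlap in 21 of 45 members at P14, and 30.1% of all tested probes lay apart in that direction. The antimiR-34a groups lay apart in 9 of 45 members, against 33.2% of all tested probes. The P14 counts depended on the scaling too. With each array's median in place of its 75th percentile, the median over all tested probes moved from -0.07 to 0.19 and the count in scrambled mice from 12 to 4, while in antimiR-34a mice 6 members then were called higher and 4 lower. The share of higher ones among all probes called moved from 46.3% to 65.3% in scrambled and from 42.1% to 73.4% in antimiR-34a mice.

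**Figure D1:**
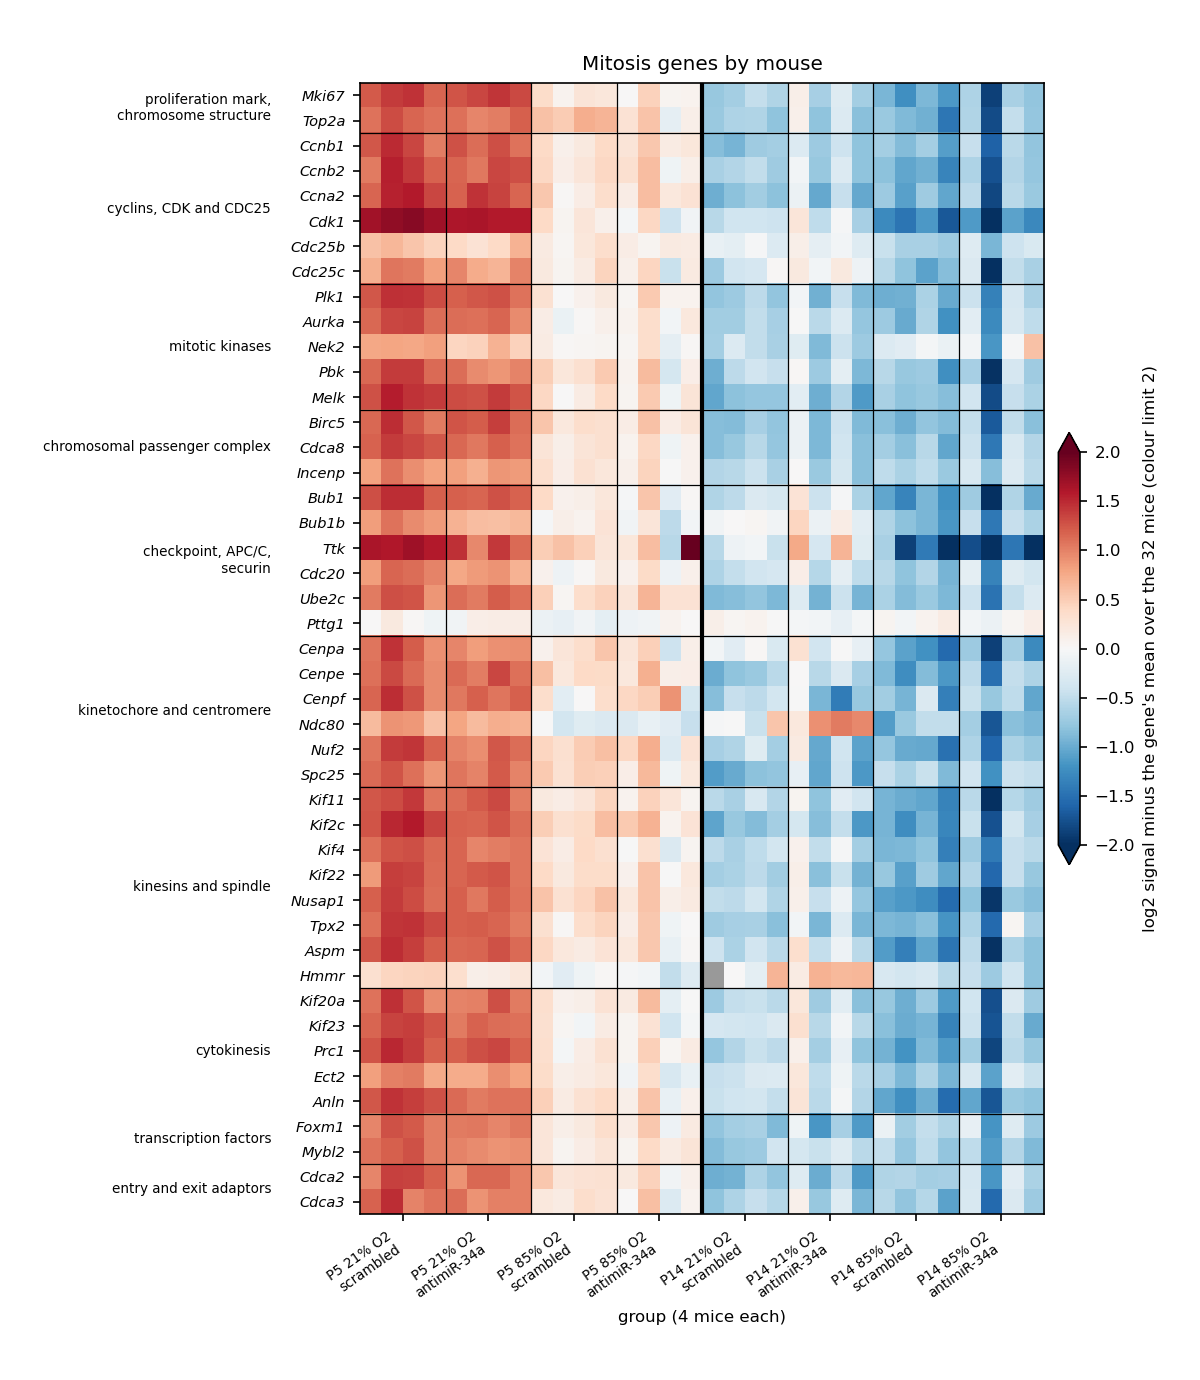
Heat map of the 45 tested mitosis genes (lines, grouped by role) in the 32 mice (columns, grouped by age, oxygen and oligonucleotide); colour gives the log2 level minus that gene's mean over all mice. Nearly all genes are highest in the P5 21% O2 mice, lower in the P5 85% O2 mice and lowest at P14, where mouse 1 of the 21% O2 antimiR-34a group stands out as high and mouse 2 of the 85% O2 antimiR-34a group as low.

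For each mouse the median over the 45 members was taken, each member measured from its mean over the 16 mice of that age. At P5 these medians were 0.43, 0.66, 0.63 and 0.41 in the scrambled 21% O2 mice and -0.32, -0.54, -0.42 and -0.35 in the scrambled 85% O2 mice. They were 0.40, 0.33, 0.46 and 0.35 in the antimiR-34a 21% O2 mice and -0.55, -0.18, -0.77 and -0.56 in the antimiR-34a 85% O2 mice. The oxygen groups lay apart at P5 with either oligonucleotide. At P14 the medians were -0.05, 0.08, 0.17 and 0.14 in scrambled 21% O2 mice and -0.06, -0.28, -0.11 and -0.43 in scrambled 85% O2 mice, which also lay apart, though by little. With each array's median as the scale, the mean of the medians over both oligonucleotides, 85% O2 minus 21% O2, turned from -0.34 to 0.06 at P14 and moved from -0.92 to -0.69 at P5. In antimiR-34a mice at P14 they were 0.70, -0.03, 0.39 and -0.06 in 21% O2 and 0.18, -0.87, 0.22 and -0.02 in 85% O2, and these groups overlapped. Mouse 1 of the P14 21% O2 antimiR-34a group was the highest of its group in 42 of 45 members, and mouse 2 of the P14 85% O2 antimiR-34a group was the lowest of its group in 43 of 45. Without the former the count at P14 in antimiR-34a mice was 10 instead of 16, and without both mice the count in scrambled mice, which shares its estimate of the spread with them, was 20 instead of 12.

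**Figure D2:**
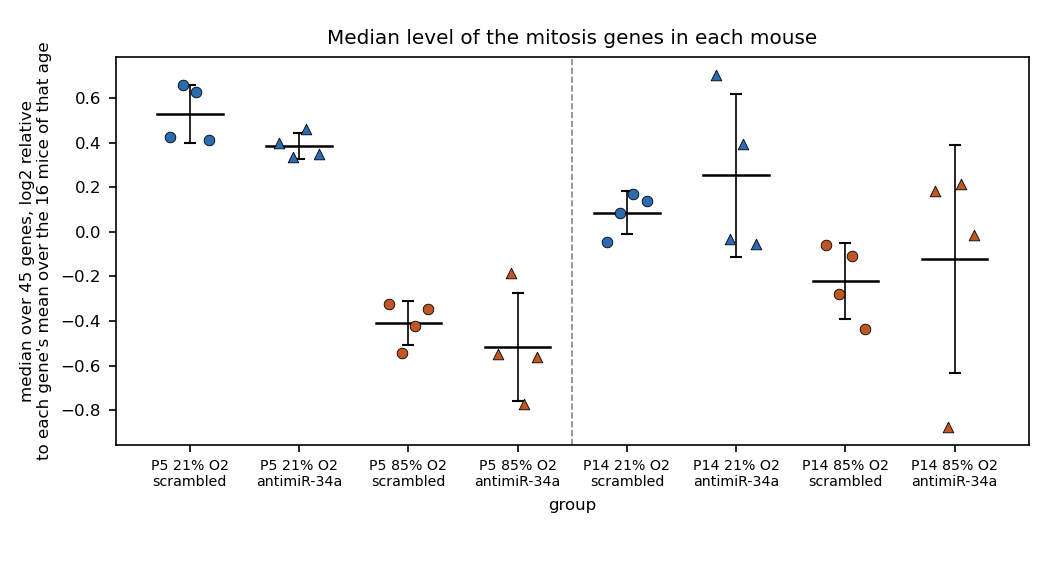
Median over the 45 members for each mouse (points, log2, each member measured from its mean over the mice of that age) in the 8 groups, with the group mean as a bar and its SD as an error line. The P5 85% O2 points lie between -0.77 and -0.18, all below the P5 21% O2 points at 0.33 to 0.66, whereas the P14 antimiR-34a groups overlap.

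Ki-67 is the nuclear protein that coats mitotic chromosomes and marks dividing cells, and topoisomerase II alpha untangles sister DNA strands. The transcripts of both, Mki67 and Top2a, were lower in hyperoxic lungs at P5. The level of Mki67 was 4.60, 4.77, 4.82 and 4.54 in the scrambled 21% O2 mice and 3.74, 3.45, 3.64 and 3.61 in the scrambled 85% O2 mice, so each hyperoxic mouse lay below each normoxic one (log2 difference -1.08 ± 0.10 (SE), adjusted p = 2.01e-06). Top2a fell by less, from 1.23, 1.45, 1.31 and 1.24 to 0.74, 0.65, 0.87 and 0.82 (-0.54 ± 0.12 (SE), adjusted p = 0.00275). At P14 the Mki67 level was 2.62, 2.70, 2.89 and 2.78 in 21% O2 and 2.46, 2.15, 2.48 and 2.23 in 85% O2. These groups lay apart by a narrow margin and the difference was not called (-0.42 ± 0.25 (SE), adjusted p = 0.154), while that of Top2a was -0.31, adjusted p = 0.328. In antimiR-34a mice the difference of Mki67 was -1.19, adjusted p = 6.43e-07 at P5 and -0.61, adjusted p = 0.0421 at P14, where the groups overlapped and its other tested probe was not called (-0.43, adjusted p = 0.185).

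Cdk1 is the kinase that starts mitosis, cyclins B and A are its partners, and CDC25 phosphatases remove the phosphates that hold it off. All 6 members of this role fell at P5 in scrambled mice and all 6 in antimiR-34a mice. Cdk1 showed the largest difference at P5 among the probes used for the 45 members, from 1.22, 1.31, 1.36 and 1.23 in 21% O2 to -0.07, -0.41, -0.22 and -0.37 in 85% O2 (-1.55 ± 0.13 (SE), adjusted p = 6.48e-07). Cdc25b showed the smallest of the role, from 2.29, 2.37, 2.26 and 2.15 to 1.89, 1.75, 1.93 and 2.06 (-0.36 ± 0.09 (SE), adjusted p = 0.0043). Ccnb1 lay between them at 2.14, 2.39, 2.23 and 1.91 in 21% O2 and 1.29, 0.99, 1.08 and 1.30 in 85% O2 (-1.00 ± 0.11 (SE), adjusted p = 8.05e-06). Ccnb2 (-1.00), Ccna2 (-1.14) and Cdc25c (-0.69) fell too. At P14, 2 of the 6 fell in scrambled mice. Cdk1 went from -1.03, -0.87, -0.87 and -0.89 to -1.73, -1.93, -1.62 and -2.16 (-0.95 ± 0.25 (SE), adjusted p = 0.00506), with the groups apart. Of the other 2 tested probes of Cdk1, the first gave -0.71, adjusted p = 0.0125 at P5 and -0.60, adjusted p = 0.15 at P14 in scrambled mice, and the other, called lower at P5, was well above background on 11 of 32 arrays and was not tested at P14. Cdc25b went from 1.56, 1.52, 1.69 and 1.43 to 1.26, 1.05, 1.07 and 0.98 (-0.46 ± 0.13 (SE), adjusted p = 0.00845). Ccnb1 at P14 was 0.04, -0.04, 0.19 and 0.21 in 21% O2 and 0.22, 0.03, 0.22 and -0.20 in 85% O2, a difference of -0.03, adjusted p = 0.903, with overlapping groups. The Ccnb1 probe used here maps to mm9 chromosome 13, and the other 2 probes of that name, placed on chromosome 7, gave -0.87 and -0.72 at P5 and -0.67, adjusted p = 0.0665 and 0.27, adjusted p = 0.373 at P14 in scrambled mice. The former was called lower at P14 in antimiR-34a mice (-1.03, adjusted p = 0.00756).

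The other mitotic kinases were PLK1 and Aurora A, which mature the centrosomes and build the spindle, NEK2, which splits the centrosomes, and PBK and MELK, which are abundant in dividing cells. The transcripts of all 5 fell at P5 with either oligonucleotide and those of none at P14. Plk1 went from 3.01, 3.24, 3.21 and 3.08 in the scrambled 21% O2 mice to 2.08, 1.78, 1.86 and 1.96 in the 85% O2 mice at P5 (-1.21 ± 0.10 (SE), adjusted p = 8.71e-07). Melk went from 0.92, 1.21, 1.09 and 1.05 to 0.05, -0.35, -0.19 and 0.04 (-1.18 ± 0.12 (SE), adjusted p = 4.6e-06), and Nek2, the smallest difference of the role, from -0.51, -0.49, -0.50 and -0.46 to -1.11, -1.26, -1.24 and -1.22 (-0.72 ± 0.09 (SE), adjusted p = 3.28e-05). In each of the 3 the hyperoxic and normoxic mice lay apart. At P14 the values stood otherwise. Nek2 was -1.96, -1.56, -1.78 and -1.93 in 21% O2 and -1.56, -1.51, -1.32 and -1.42 in 85% O2, a difference of 0.35, adjusted p = 0.272, and Melk was -1.40, -1.17, -1.13 and -1.12 in 21% O2 and -1.01, -1.16, -1.12 and -1.22 in 85% O2, a difference of 0.08, adjusted p = 0.807. Both overlapped between the oxygen groups.

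The chromosomal passenger complex, which corrects faulty spindle attachments, consists of Aurora B and its partners survivin (Birc5), borealin (Cdca8) and the scaffold INCENP. By the probes used, all 3 tested members fell at P5 with either oligonucleotide, and none at P14. Cdca8 went from 3.13, 3.35, 3.27 and 3.18 in scrambled 21% O2 mice to 2.20, 2.06, 2.20 and 2.26 in 85% O2 mice (-1.05 ± 0.09 (SE), adjusted p = 9.18e-07), and Incenp from 4.07, 4.35, 4.19 and 4.07 to 3.60, 3.40, 3.57 and 3.50 (-0.65 ± 0.10 (SE), adjusted p = 9.67e-05). At P14 Birc5, with the largest value of the role, was 2.34, 2.33, 2.53 and 2.40 in 21% O2 and 2.36, 2.22, 2.41 and 2.33 in 85% O2 and overlapped (-0.07, adjusted p = 0.798). Its other 2 tested probes gave -0.26, adjusted p = 0.417 and -0.58, adjusted p = 0.0567, and the latter was called lower in antimiR-34a mice (-0.76, adjusted p = 0.0148). The probe of Aurkb was well above background on 6 of 32 arrays, 3 of 4 in each P5 21% O2 group and none elsewhere, so it gives only a rough value. Its P5 85% O2 values were raised to the dimmest signal of any probe counted as above background on the same array. Set against these, its mean in P5 21% O2 was 1.83-fold higher in scrambled mice and 1.39-fold higher in antimiR-34a mice, untested. This is no firm minimum. A higher floor would give a smaller fold, and not every P5 21% O2 array was above background.

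The spindle checkpoint kinases BUB1, BUBR1 (Bub1b) and TTK delay anaphase until every chromosome is attached. CDC20 and UBE2C then drive the anaphase-promoting complex (APC/C), which destroys cyclin B and securin (Pttg1). At P5, the transcripts of 5 of these 6 fell in scrambled mice and of 4 in antimiR-34a mice. Bub1b went from -0.34, -0.09, -0.22 and -0.32 in 21% O2 to -1.19, -1.05, -1.10 and -0.89 in 85% O2 (-0.82 ± 0.12 (SE), adjusted p = 0.000131) and Cdc20 from 3.28, 3.60, 3.56 and 3.44 to 2.53, 2.34, 2.46 and 2.63 (-0.98 ± 0.10 (SE), adjusted p = 4.81e-06). Ttk was -3.08, -3.11, -3.02 and -3.13 in 21% O2 and -4.22, -4.13, -4.25 and -4.48 in 85% O2 (-1.18 ± 0.36 (SE), adjusted p = 0.0161). In antimiR-34a mice its groups overlapped, since mouse 4 of the 85% O2 group stood at the top (-3.25, -3.76, -3.30 and -3.59 in 21% O2 and -4.49, -4.10, -5.27 and -2.72 in 85% O2). Pttg1 was the exception among all 45 members in scrambled mice, at 3.88, 4.07, 3.90 and 3.79 in 21% O2 and 3.76, 3.71, 3.81 and 3.68 in 85% O2, with overlapping groups (-0.17 ± 0.07 (SE), adjusted p = 0.0643). Its other tested probe gave 0.14, also not called.

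At P14 the checkpoint kinase genes were the members of this role that fell. Bub1b went from -1.25, -1.16, -1.13 and -1.25 in scrambled 21% O2 mice to -1.77, -1.99, -2.09 and -2.34 in 85% O2 mice (-0.85 ± 0.20 (SE), adjusted p = 0.00248), close to its P5 difference. Ttk went from -5.27, -4.82, -4.77 and -5.16 to -5.36, -6.59, -6.14 and -7.67 (-1.43 ± 0.45 (SE), adjusted p = 0.014), but its spot was well above background on 1 of 4 arrays in the P14 85% O2 scrambled group, and with normexp background correction its difference was 0.07. Bub1 fell as well (-0.68, adjusted p = 0.0369), a call lost under 11 of 21 alternatives. In antimiR-34a mice Ttk was above background on 0 of 4 arrays in P14 85% O2. With these values raised to the dimmest signal of any probe above background on the array, it was 2.98-fold higher in 21% O2, which is no firm minimum. The limma call there (adjusted p = 0.000497) rests on values below background in 85% O2 and carries little weight. Cdc20 at P14 was 1.83, 1.96, 2.07 and 2.11 in 21% O2 and 1.89, 1.65, 1.85 and 1.52 in 85% O2, overlapping (-0.27, adjusted p = 0.314), and Pttg1 was 3.99, 3.92, 3.94 and 3.87 in 21% O2 and 3.94, 3.82, 3.95 and 4.04 in 85% O2 (0.01, adjusted p = 0.94).

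Centromeres carry the histone H3 variant CENP-A, and the kinetochores built on them hold microtubules through the NDC80 complex (Ndc80, Nuf2, Spc25) and the large proteins CENP-E and CENP-F. The transcripts of all 6 fell at P5 with either oligonucleotide. Cenpf went from -3.62, -3.31, -3.50 and -3.84 in scrambled 21% O2 mice to -4.42, -4.99, -4.76 and -4.42 in 85% O2 mice (-1.08 ± 0.21 (SE), adjusted p = 0.000943), and Spc25, the smallest difference of the role, from 4.28, 4.40, 4.24 and 4.03 to 3.67, 3.44, 3.63 and 3.61 (-0.65 ± 0.13 (SE), adjusted p = 0.00109). Cenpa went from 1.46, 1.83, 1.60 and 1.30 to 0.48, 0.64, 0.74 and 0.94 (-0.85 ± 0.16 (SE), adjusted p = 0.000837). At P14 Cenpa was 0.33, 0.16, 0.40 and 0.09 in 21% O2 and -0.38, -0.68, -0.83 and -1.17 in 85% O2, with every hyperoxic mouse below every normoxic one (-1.01 ± 0.24 (SE), adjusted p = 0.00247). Ndc80 fell too, from -1.24, -1.24, -1.67 and -0.67 to -2.34, -1.97, -1.71 and -1.71 (-0.73 ± 0.26 (SE), adjusted p = 0.027). Mouse 4 of the 21% O2 group was highest for it. The other 4 were not called. Cenpe was 0.90, 1.07, 1.15 and 1.35 in 21% O2 and 1.01, 0.64, 1.02 and 0.74 in 85% O2 (-0.26, adjusted p = 0.294), and the spot of Cenpf was partly below background in 3 of the 4 P14 groups.

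Spindle members were the kinesins Kif11, which pushes the poles apart, Kif2c, which shortens microtubules, and Kif4 and Kif22, which sit on chromosome arms, with the microtubule proteins Nusap1 and Tpx2, the pole protein Aspm and Hmmr, a hyaluronan receptor that also binds the spindle. All 8 fell at P5 with either oligonucleotide. Aspm went from 1.09, 1.33, 1.24 and 1.07 in scrambled 21% O2 mice to 0.27, 0.06, 0.02 and 0.13 in 85% O2 mice (-1.07 ± 0.12 (SE), adjusted p = 8.66e-06) and Kif11 from -0.64, -0.58, -0.47 and -0.81 to -1.69, -1.73, -1.64 and -1.43 (-1.00 ± 0.10 (SE), adjusted p = 5.55e-06). Hmmr showed the smallest difference, from 0.97, 1.07, 1.09 and 1.11 to 0.59, 0.42, 0.56 and 0.68 (-0.50 ± 0.09 (SE), adjusted p = 0.000817). In all 3 the oxygen groups lay apart. At P14, Nusap1, Aspm and Hmmr fell. Nusap1 went from -0.26, -0.28, -0.12 and -0.36 to -0.84, -0.91, -1.01 and -1.31 (-0.76 ± 0.24 (SE), adjusted p = 0.0147). Hmmr was 0.66, 0.46 and 1.32 in the 3 scrambled 21% O2 mice with a value (1 spot was marked as an outlier) and 0.33, 0.27, 0.33 and 0.09 in 85% O2 (-0.55 ± 0.19 (SE), adjusted p = 0.0238). Tpx2 had the smallest value of the role, -0.58, -0.55, -0.53 and -0.71 in 21% O2 and -0.78, -0.82, -0.72 and -1.06 in 85% O2 (-0.25, adjusted p = 0.434).

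Cytokinesis members were Prc1, which bundles the midzone microtubules, the kinesins Kif20a and Kif23, the RhoA activator Ect2 and the ring protein anillin (Anln). All 5 fell at P5 with either oligonucleotide. Kif23 went from 0.38, 0.57, 0.61 and 0.47 in scrambled 21% O2 mice to -0.46, -0.75, -0.83 and -0.61 in 85% O2 mice (-1.17 ± 0.12 (SE), adjusted p = 4.47e-06), and Ect2 from 0.97, 1.16, 1.19 and 0.91 to 0.52, 0.27, 0.31 and 0.37 (-0.69 ± 0.12 (SE), adjusted p = 0.000385). At P14, Kif23 and Anln fell in scrambled mice, and 2 of the 5 in antimiR-34a mice. Kif23 was -1.12, -1.15, -1.17 and -1.08 in 21% O2 and -1.62, -1.78, -1.71 and -2.11 in 85% O2 (-0.67 ± 0.25 (SE), adjusted p = 0.0336), and Anln was 0.80, 0.85, 0.88 and 0.77 in 21% O2 and 0.22, 0.01, 0.27 and -0.29 in 85% O2 (-0.77 ± 0.22 (SE), adjusted p = 0.00737). Both lay apart between the groups. Kif20a was 0.09, 0.34, 0.37 and 0.27 in 21% O2 and 0.05, -0.16, 0.09 and -0.31 in 85% O2, and overlapped (-0.35, adjusted p = 0.305).

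FOXM1 and MYBL2 are the transcription factors that help switch on genes of G2 and mitosis. The transcripts of both fell at P5 with either oligonucleotide. Mybl2 went from 1.60, 1.70, 1.79 and 1.53 in scrambled 21% O2 mice to 0.75, 0.56, 0.65 and 0.76 in 85% O2 mice (-0.97 ± 0.08 (SE), adjusted p = 4.93e-07) and Foxm1 from 0.61, 0.91, 0.86 and 0.65 to -0.12, -0.25, -0.17 and -0.01 (-0.90 ± 0.11 (SE), adjusted p = 2.37e-05). At P14 neither was called in scrambled mice. Foxm1 was -1.16, -1.05, -1.02 and -1.26 in 21% O2 and -0.51, -1.06, -0.85 and -0.97 in 85% O2, a difference of 0.27, adjusted p = 0.355, and Mybl2 was -0.36, -0.25, -0.22 and 0.13 in 21% O2 and 0.03, -0.27, 0.00 and -0.28 in 85% O2, a difference of 0.05, adjusted p = 0.789. The Mybl2 probe used here carries an mm9 position on chromosome 19, and its other tested probe, on chromosome 2, gave -0.93 at P5 and -0.07 at P14 in scrambled mice. In antimiR-34a mice at P14 the former was called lower (-0.38, adjusted p = 0.0307) and the latter was not called (-0.23, adjusted p = 0.391). The last role holds Cdca3, a trigger of mitotic entry, and Cdca2, which targets a phosphatase to chromosomes at mitotic exit. Both fell at P5, Cdca3 from 2.04, 2.33, 1.85 and 1.95 to 1.07, 1.02, 1.21 and 1.15 (-0.93 ± 0.15 (SE), adjusted p = 0.00019) and Cdca2 from -0.49, -0.10, -0.13 and -0.28 to -0.93, -1.23, -1.19 and -1.18 (-0.88 ± 0.12 (SE), adjusted p = 4.57e-05). At P14 Cdca2 was -2.46, -2.43, -2.09 and -2.27 in 21% O2 and -2.08, -2.07, -2.15 and -2.14 in 85% O2 (0.20, adjusted p = 0.411).

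**Figure D3:**
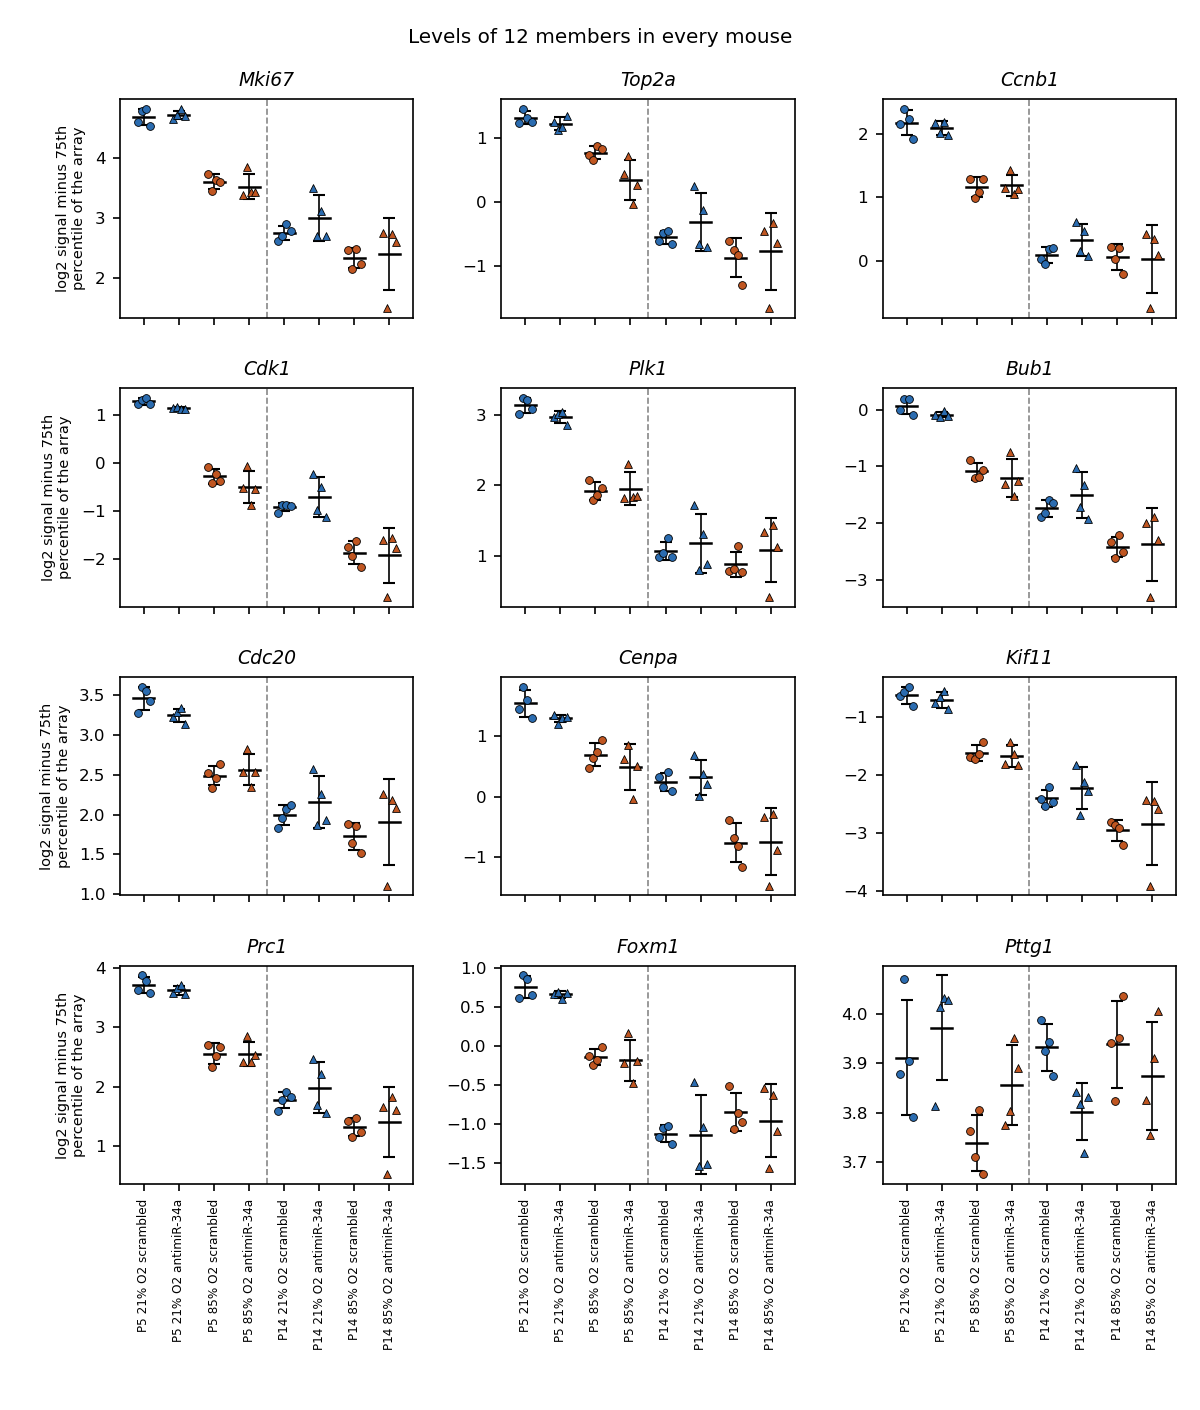
Log2 levels of 12 members in the 8 groups (points are mice, bars the group mean and error lines its SD), 1 panel a gene with its own vertical axis. In Cdk1, Plk1 and Foxm1 the P5 85% O2 points lie below the P5 21% O2 points, while at P14 the scrambled oxygen groups of Plk1 and Foxm1 overlap and those of Cdk1 do not, and Pttg1 spans less than any other panel.

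Members read by more than 1 tested probe gave a further view at P5. Of 16 other probes, 15 had the sign of the brightest probe and 15 were called lower with 85% O2 in scrambled mice. At P14, 10 of 15 had the same sign and 1 was called.

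The difference between the oxygen effects at the 2 ages was tested directly in scrambled mice, as the effect at P14 minus the effect at P5. It was above 0 and called in 18 of 45 members and below 0 in none, with a median of 0.62 against 0.04 over all probes, and 22.8% of all tested probes were called in that direction. The count was 30 with array weights and 31 in a fit of only the compared groups. It was highest for Melk (1.26 ± 0.30 (SE), adjusted p = 0.00151), Foxm1 (1.17 ± 0.28 (SE), adjusted p = 0.00164) and Cdca2 (1.08 ± 0.24 (SE), adjusted p = 0.000958), followed by Ccna2 (1.08), Nek2 (1.07), Plk1 (1.03) and Mybl2 (1.02). The probe of Foxm1 used here gave an oxygen difference of 0.27 at P14, whereas its other tested probe gave -0.83 at P5 and -0.40, adjusted p = 0.291 at P14. All 3 tested passenger complex members and both transcription factors were among the 18. For Cenpa it was -0.16 ± 0.30 (SE), adjusted p = 0.698, for Bub1b -0.03 ± 0.24 (SE), adjusted p = 0.938 and for Nusap1 0.03 ± 0.27 (SE), adjusted p = 0.949. A p that misses the threshold does not show that an effect was the same at both ages.

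**Figure D4:**
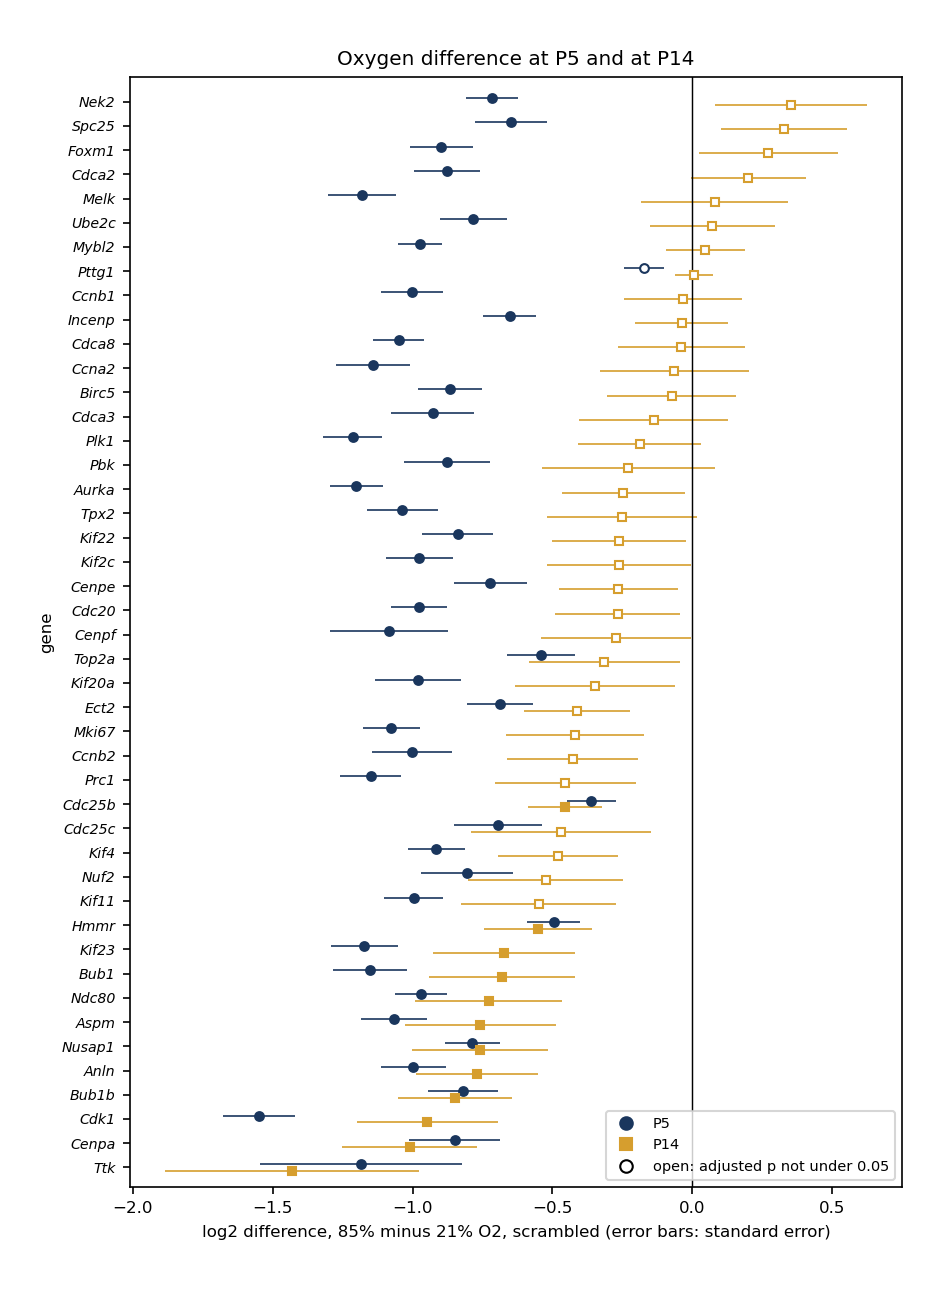
Oxygen difference (log2, 85% O2 minus 21% O2, scrambled mice) on the horizontal axis for each of the 45 members (lines) at P5 (circles) and P14 (squares), with the SE as error bars and open symbols where the difference was not called. All P5 points lie left of 0 and 44 are filled, while at P14 12 squares are filled, between -1.43 for Ttk and -0.46 for Cdc25b, and Nek2 stands at 0.35.

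AntimiR-34a moved no member past the threshold, except that a fit with array weights called 4 members higher and 1 lower in 21% O2 at P14, where it called 18.7% of all tested probes higher and 7.04% lower. In 21% O2 at P5 the members' median difference, antimiR-34a minus scrambled, was -0.12 and the smallest adjusted p was 0.18, where 0.136% of all tested probes were called. In 85% O2 at P5 the median was -0.09 and the smallest adjusted p 0.193, with 0.0639% of all probes called. At P14 the medians were 0.17 in 21% O2 (smallest adjusted p 0.474, 0% of probes called) and 0.09 in 85% O2 (0.531, with 2.67% of probes called). At an unadjusted p under 0.05 limma gave 6, 3, 1 and 0 members in these 4 comparisons, against 17.6%, 13.1%, 10.5% and 16.5% of all tested probes. The methods' test of 2 groups gave 13 members lower in 21% O2 at P5 before and 0 after Benjamini-Hochberg adjustment, and before it 5.05% of all tested probes were lower and 13.5% higher. The antimiR-34a difference for Mki67 was 0.03 ± 0.10 (SE) in 21% O2 and -0.08 ± 0.10 in 85% O2 at P5, and 0.26 ± 0.25 and 0.07 ± 0.25 at P14. The SE of a member was 0.12 in the median at P5 and 0.24 at P14, and a difference well above 1 SE could still be missed with 4 mice a group. For scale, the oxygen difference of Mki67 at P14 in scrambled mice (-0.42 ± 0.25 (SE)) was not called (adjusted p = 0.154 in limma). The test of whether the antimiR-34a effect differed between oxygen levels called 0 members at P5 (0.0556% of all probes) and 0 at P14 (0.0884%), with 1 and 2 members at an unadjusted p under 0.05, against 10.8% and 15% of all probes. With array weights it called 2 members at P14, both below 0, as were 11.3% of all probes.

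Single mice stood apart within the antimiR-34a groups. At P14 in 21% O2, Ndc80 was -1.02, -0.32, -0.19 and -0.27 and Hmmr was 0.81, 1.34, 1.30 and 1.31 in the antimiR-34a mice, so mouse 1, the highest of the group in 42 of 45 members, was the lowest in these 2. In the scrambled mice of that age and oxygen level Ndc80 was -1.24, -1.24, -1.67 and -0.67, with mouse 4 the highest. At P5 in 85% O2, mouse 2 of the antimiR-34a group was the highest of its group in 40 members, and mouse 2 of the scrambled group the lowest in 39.

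Age had the largest differences. In scrambled 21% O2 mice, 43 of 45 members were lower at P14 than at P5 and none was higher, with a median log2 difference of -1.82 (3.53-fold) against 0.04 over all probes, and 23.8% of all tested probes were called lower. In scrambled 85% O2 mice 41 fell (16.5% of probes) and 1 rose (25.6% of probes), with a median of -1.12. In antimiR-34a mice 43 fell (28.3%) and 1 rose (29.7%) in 21% O2, and 43 fell in 85% O2 (16.6%), with medians of -1.48 and -1.01. In that last comparison the methods' test of 2 groups with Benjamini-Hochberg adjustment called 1 member. These comparisons share mice with the oxygen comparisons. In scrambled 21% O2 mice the largest fall was that of Melk, from 0.92, 1.21, 1.09 and 1.05 at P5 to -1.40, -1.17, -1.13 and -1.12 at P14 (-2.27 ± 0.21 (SE), adjusted p = 3.1e-09). Mki67 fell from between 4.54 and 4.82 to between 2.62 and 2.89 (-1.93 ± 0.19 (SE), adjusted p = 1.07e-08), and in 85% O2 from between 3.45 and 3.74 to between 2.15 and 2.48 (-1.28 ± 0.19 (SE), adjusted p = 8.35e-06). The members that did not fall in 1 or more of the 4 age comparisons were Pttg1, Hmmr, Nek2 and Ndc80. Pttg1 differed by 0.02, adjusted p = 0.815 in scrambled 21% O2 mice and rose in scrambled 85% O2 mice (0.20 ± 0.07 (SE), adjusted p = 0.017), where its other tested probe fell (-0.30, adjusted p = 0.0313). In antimiR-34a mice Pttg1 fell in 21% O2 (-0.17, adjusted p = 0.0315) and differed by 0.02, adjusted p = 0.857 in 85% O2. Hmmr differed by -0.25, adjusted p = 0.183 in scrambled 21% O2 mice and rose in antimiR-34a 21% O2 mice (0.34 ± 0.14 (SE), adjusted p = 0.0457), and in 85% O2 it differed by -0.31, adjusted p = 0.0897 in scrambled mice and fell in antimiR-34a mice (-0.39, adjusted p = 0.0343). Nek2 was not called in 85% O2, at -0.25, adjusted p = 0.363 in scrambled and -0.23, adjusted p = 0.426 in antimiR-34a mice. Ndc80 was not called in scrambled 85% O2 mice (-0.48, adjusted p = 0.0561) or in antimiR-34a 21% O2 mice (0.07, adjusted p = 0.797).

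Other genes of the cell cycle were read from lists of their own. Of 37 other mitotic genes tested, 33 fell and 1 rose with 85% O2 at P5 in scrambled mice, with a median of -0.89. Troap (-1.19 ± 0.19, SE) and Fam64a (-1.09 ± 0.11) fell most, and Gtse1 (0.37 ± 0.11) rose. Of 27 other kinetochore genes 22 fell and none rose, with Ska2 (-1.42 ± 0.20) and Ska1 (-1.26 ± 0.13), which couple kinetochores to microtubules, falling most, and their median was -0.74. Condensin and cohesin genes, which compact chromosomes and hold sisters together, fell in 14 of 21 and rose in 2, with Sgol2, the protector of centromeric cohesin, at -1.23 ± 0.16 and a median of -0.28 for the list. The list of APC/C subunits, many of which are made throughout the cell cycle, split into 5 lower and 2 higher of 14, with a median of -0.12. It also holds Fzr1 (-0.26) and Ube2s (-0.64), which act with the APC/C without being subunits, and both were among the 5. Over all tested probes the median was -0.07. At P14 the counts lower and higher were 10 and 3 of 37, 7 and 4 of 27, 9 and 2 of 20, and 0 and 5 of 14 in the same order. Of all tested probes 26.5% were called lower and 17.4% higher at P5, and 32.7% lower and 28.2% higher at P14, so the P14 shares of the first 2 lists called lower lay below that of all probes.

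Genes of G1 and S phase and of cell cycle arrest went in both directions. Of 19 genes of a G1 and S phase list, which holds cyclins D and E and the E2F factors together with Cdk2, Cdk4, Cdk6, Cdc25a, Myc, Mycn and Met, 8 fell and 3 rose at P5 and 6 fell and 6 rose at P14. Mycn was among those that rose at P5, and Myc and Cdk4 among those that rose at P14. Ccnd1, cyclin D1, rose by 1.01 ± 0.06 (SE) at P5 and 1.81 ± 0.09 at P14, whereas E2f4, a subunit of the DREAM complex, fell (-1.41 ± 0.21 and -1.42 ± 0.09). A list of 23 genes held inhibitors of the cycle, p53 and its targets and the genes Lin9, Lin37, Lin52 and Lin54 of the MuvB core, which is shared by the repressing DREAM complex and the activating MYBL2-MuvB complex. Of these 23, 8 rose and 6 fell at P5 and 9 rose and 8 fell at P14, with Lin9 among those that fell at both ages and Lin54 at P14. Cdkn1a, which encodes p21, was the highest of these at both ages, with 3.85 ± 0.15 at P5 and 4.39 ± 0.12 at P14. Ccng1, also a p53 target, rose by 2.43 ± 0.09 and 2.01 ± 0.10, and the CDK4 and CDK6 inhibitor Cdkn2c fell (-1.27 ± 0.13 and -1.75 ± 0.17).

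Markers of cell types that differ in how much they divide also moved with oxygen and age. Of 4 fibroblast and myofibroblast markers, 4 fell with 85% O2 at P5 in scrambled mice (26.5% of all probes), while at P14 3 fell and Acta2, the smooth muscle actin gene, rose (0.94, adjusted p = 9.1e-05). Their mean level, measured from the mean over all mice, ranged from 0.02 to 0.17 in P5 21% O2 scrambled mice and from -0.59 to -0.42 in P5 85% O2 scrambled mice. All 3 macrophage markers rose at both ages in scrambled mice (17.4% and 28.2% of all probes). Thymocytes, which divide rapidly and can enter a sample with thymus tissue, were tracked by 8 markers. At P14 the thymocyte list ranged from 0.72 to 1.19 in scrambled and 1.02 to 2.29 in antimiR-34a 21% O2 mice against -1.04 to -0.35 and -0.97 to -0.46 in the 85% O2 mice, and 7 of 8 markers fell with oxygen in scrambled mice (32.7% of all probes) and 8 of 8 in antimiR-34a mice (37.9%). At P5, 2 of 5 tested thymocyte markers fell in scrambled (26.5% of all probes) and 3 in antimiR-34a mice (29.5%), and mouse 4 of the P5 21% O2 antimiR-34a group, at 0.83, was the highest P5 mouse on the list. In scrambled mice at P5, Cd1d1 and Tcf7 were lower in every 85% O2 mouse than in any 21% O2 mouse. Rag1 went the other way, uncalled, from -7.27, -6.48, -6.32 and -7.67 in 21% O2 to -5.00, -5.81, -6.16 and -5.86 in 85% O2. Of the 16 P5 arrays, the pre-T cell receptor gene Ptcra and the recombinase gene Rag2 were above background on 0, Rag1 on 7 and Themis on 2, and Dntt, Cd8b1, Cd1d1 and Tcf7 on all 16. Erythroid precursors, the dividing cells that give rise to red blood cells, were tracked by 6 tested markers, whose mean in scrambled mice was 0.82 in 21% O2 and 0.22 in 85% O2 at P5 and -0.02 and -1.28 at P14, with 2 markers lower and 1 higher at P5 and 4 lower at P14. In antimiR-34a mice this mean was 0.99 and 0.34 at P5 and -0.11 and -0.96 at P14, so the list was lower with oxygen and with age in every pair of group means. The B lineage list stood at -0.21 in 21% O2 and 0.01 in 85% O2 at P5 and at 0.47 and -0.36 at P14 in scrambled mice, with 2 of 3 markers lower at P14. The neutrophil precursor list went the other way at P14, with a mean of -0.33 in 21% O2 and 0.20 in 85% O2 scrambled mice and 3 of 7 markers higher, and stood at 0.40 and 0.05 at P5. Of the lung lists, the type I pneumocyte mean was -0.59 in 21% O2 and -0.03 in 85% O2 at P5 and 0.10 and 0.54 at P14 in scrambled mice, with 4 and 3 of 4 markers higher. The endothelial mean was 0.01 and -0.08 at P5 and 0.33 and -0.28 at P14, with 1 of 4 markers lower at each age and 1 higher at P14. The means of the muscle lists were lower in 85% O2 as well. In antimiR-34a mice 1 of 5 heart and 1 of 8 skeletal muscle markers were called lower at P5 (29.5% of all probes). At P14 these were 2 of 5 and 3 of 8 (37.9%). The heart muscle mean was 0.43 in 21% O2 and -1.04 in 85% O2 at P5 and 1.19 and -0.35 at P14 in scrambled mice, with 4 and 3 of 5 markers lower, and the skeletal muscle mean was 1.44 and -0.68 at P5 and 0.81 and -0.82 at P14, with 5 of 8 lower at each age. The part of these cells in the members' differences was not tested. Skeletal muscle markers stood apart in mouse 4 of the P5 21% O2 scrambled group, at 4.72 against 0.04 to 0.88 in the others, and without it 45 of 45 members fell with oxygen at P5 and 43 with age in scrambled 21% O2 mice. Without mouse 1 of the P14 21% O2 antimiR-34a group, which was highest for the thymocyte list, the P14 counts were 13 in scrambled mice, whose fit shares its estimate of the spread, and 10 in antimiR-34a mice.

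**Figure D5:**
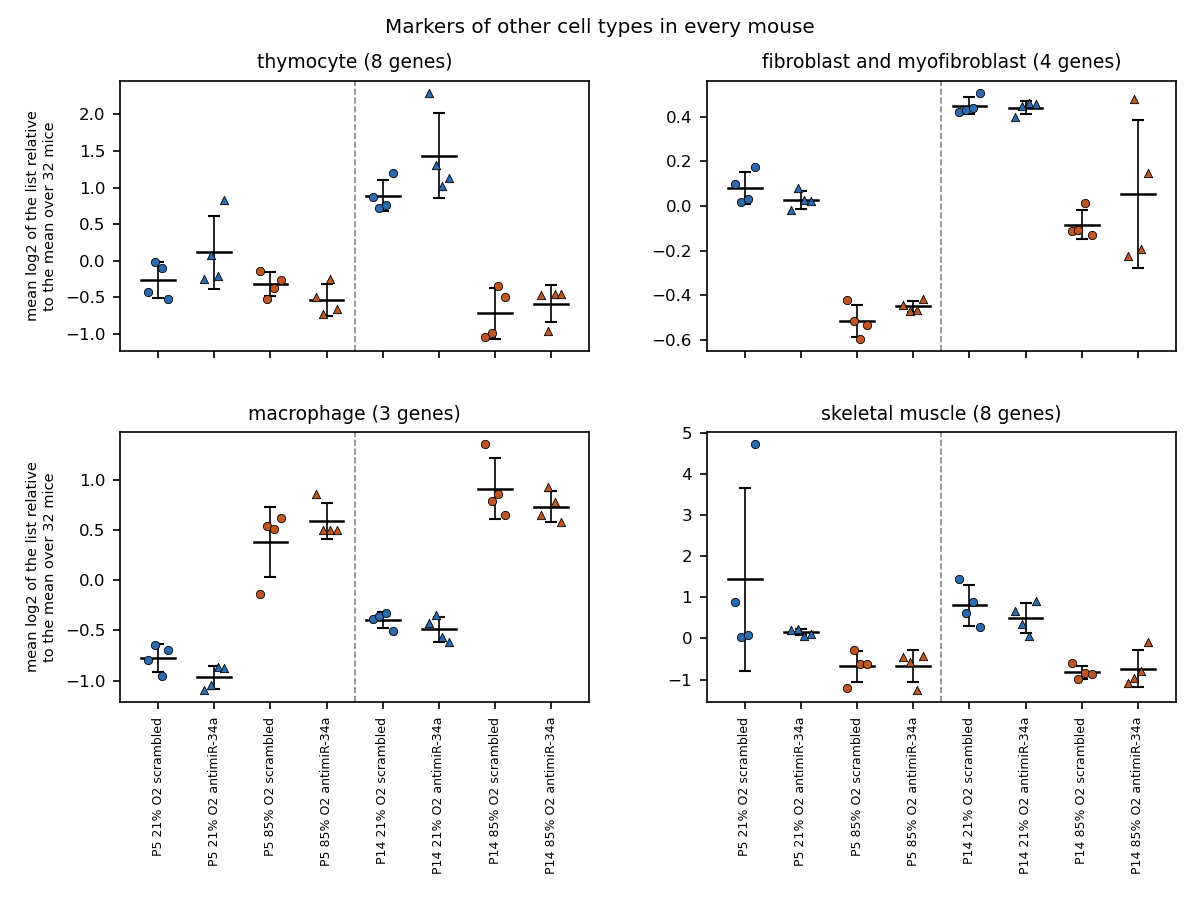
Mean log2 level of the marker lists for each mouse (points), measured from the mean over all mice, in the 8 groups, 1 panel a list. Fibroblast markers are lower in the 85% O2 groups apart from mouse 2 of the P14 85% O2 antimiR-34a group at 0.48, macrophage markers are higher in the 85% O2 groups, thymocyte markers are highest in the P14 21% O2 groups, and 1 P5 21% O2 scrambled mouse stands at 4.72 for skeletal muscle markers.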

How the data were processed

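Whole-lung RNA of 32 mice was measured on one-colour Agilent arrays. Per the file headers, the deposited spot intensity is Agilent Feature Extraction's processed signal (version 10.7.3.1), on a linear scale, background-subtracted and not normalized between arrays. The authors also deposited log2 values for the whole series, spread alike in all columns as after quantile normalization, which served as an alternative. Groups came from the labels. Columns of spot quality were used only for filters.

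Control spots and outlier-marked spots (0.211% of mouse spots) were left out, spots of a probe were averaged, and log2 of the intensity minus the array's 75th percentile was taken. Probes well above background on every array of 1 or more groups of a fit entered limma 3.58.1 (lmFit and eBayes, R 4.3.3; data.table version 1.17.8), with 1 fit for the 16 mice of each age and 1 for all 32 for comparisons across ages. Benjamini-Hochberg adjustment ran over all tested probes, with a threshold of 0.05. Fits were tested on simulated data. Figures and promoter counts used Python 3.11.15, pandas 2.3.3 and matplotlib 3.10.9.

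The 46 members and the lists of other genes were chosen with earlier results of these data known. The rule for named genes allowed every member; the values in every mouse are given for the largest and smallest oxygen difference of a role in scrambled mice and for a few central genes, and other lists give up to 2 genes in each direction. Alternatives were quantile normalization, median scaling, normexp background correction with an offset of 50, the authors' table, other probe filters, array weights, the replicate number as a block, the mean of a gene's probes, only the compared groups, the methods' test of 2 groups and leaving out each mouse. A slide block could not be fitted, since each slide held 1 age at 1 oxygen level. Probes carry mm9 positions, and promoters are of GRCm38.p6, and positions were not joined between builds. The number of arrays limits the precision, and no depth applies. RNA was isolated with miRNeasy per the labels, where the methods of the study name another kit.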

Additional observations from a re-analysis of the deposited data

Results flagged for a closer look

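In scrambled mice the oxygen effect at P14 minus that at P5 was called in 18 members, all above 0, by the test of the difference itself. The values were 1.26 for Melk, 1.17 for Foxm1, 1.08 for Cdca2, 1.08 for Ccna2, 1.07 for Nek2, 1.03 for Plk1, 1.02 for Mybl2, 1.01 for Cdca8, 0.98 for Spc25, 0.97 for Ccnb1, 0.96 for Aurka, 0.85 for Ube2c, 0.79 for Birc5, 0.79 for Cdca3, 0.79 for Tpx2, 0.71 for Cdc20, 0.70 for Prc1 and 0.62 for Incenp. Each compares 16 mice on 4 slides, and the slide of each age and oxygen level cannot be told apart from the effect.

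Single mice stood far from the other 3 of their group in 12 of the group values checked, by the gap to the nearest mouse over the range of the group, where about 1 in 20, or 6.4 of those checked, would pass by chance. Among the members, mouse 2 of the P14 85% O2 antimiR-34a group was low for Mki67 (1.51 against 2.59 to 2.76), Cdc20 (1.11 against 2.08 to 2.25) and Kif11 (-3.91 against -2.59 to -2.42), and its thymocyte list was low too (-0.97 against -0.47 to -0.46). Mouse 2 of the P5 85% O2 antimiR-34a group was high for Mki67 (3.84 against 3.38 to 3.44) and Plk1 (2.30 against 1.81 to 1.84). Mouse 3 of the P14 85% O2 scrambled group was high for Plk1 (1.14 against 0.77 to 0.82) and for the fibroblast and myofibroblast list (0.01 against -0.13 to -0.11). Cdk1 was low in mouse 1 of the P14 21% O2 scrambled group (-1.03 against -0.88 to -0.87).

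The macrophage list was low in mouse 1 of the P5 85% O2 scrambled group (-0.13 against 0.51 to 0.62) and high in mouse 1 of the P5 85% O2 antimiR-34a group (0.86 against 0.50 to 0.51). The skeletal muscle list was low in mouse 3 of the P5 85% O2 antimiR-34a group (-1.25 against -0.56 to -0.43).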

How the results depend on the processing

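Every alternative run kept the oxygen difference of the members at P5, with 39 to 45 members called in scrambled mice and 35 to 44 in antimiR-34a mice. The fall with age in 21% O2 was kept too (41 to 44 called in scrambled and 40 to 44 in antimiR-34a mice). These counts hold calls in either direction. The main fit for age in 21% O2 antimiR-34a mice had 43 lower and 1 higher. The P14 counts moved. In scrambled mice the count of 12 was 4 with median scaling, 22 in a fit of only the compared groups, and 20 without the mice with the highest and lowest median, a setting chosen after seeing the data. In antimiR-34a mice the count of 16 was 10 with median scaling, of which 6 were higher, 8 with only the compared groups and 5 with the methods' test and Benjamini-Hochberg adjustment. Leaving out 1 mouse of the compared groups gave 8 to 12 members in scrambled and 10 to 18 in antimiR-34a mice, the 10 being without mouse 1 of the 21% O2 group. The 2 mice whose tissue markers stood apart, chosen after seeing the data, are 1 of each age, so at P14 leaving them out is the same as leaving out mouse 1, with 10 in antimiR-34a mice and 13 in scrambled mice, whose groups do not hold it. The mean of the mouse medians, 85% O2 minus 21% O2, was -0.69 at P5 and 0.06 at P14 with median scaling. Array weights gave 5 members for antimiR-34a in 21% O2 at P14 and 2 for its interaction with oxygen at P14, where none was called otherwise. The count of 18 for the oxygen effect between ages was 30 with array weights and 31 with only the compared groups. The methods' test called 1 member for age in 85% O2 antimiR-34a mice, against 43. The cause of these shifts was not tested.

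Single members at P14 in scrambled mice differed in stability. Cdk1, Bub1b and Cenpa were called under all 21 alternatives. Bub1 was not called under 11 of 21, and Ttk was at 0.07 with normexp.

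Replicate numbers do not pair the mice by the labels, and the deviations of mice of 1 number correlated between -0.31 and 0.53, with 10 of 48 pairs over 0.1. With the replicate block 12 members were called at P14 in scrambled mice and 18 in antimiR-34a mice, and no other count moved by over 1.5 times.

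Slide could not be separated from oxygen and age, nor array row from antimiR. Signal over background limits Aurkb, Ttk and Cenpf at P14, where a spot near background gives only a rough value or a large SE.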
